A study of Mus musculus with 18 samples.

Results

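Pf4, Ppbp, Tubb1, Treml1, Alox12, Gp9, Gp1bb, Itga2b and F2rl2 are genes of platelets and of megakaryocytes, the cells that shed platelets. They were followed over cardiac development on arrays of Wt1-GFP+ ventricular cells. All probes that the platform annotation names for these 9 genes were taken, 15 of the 45281 probes on the array and 9 of its 19057 named genes. The 9 genes had been picked from these same arrays because their probes were bright at E11.5 and dim afterwards. For these 9 genes, differences that use the E11.5 or the E16.5 arrays are therefore given as descriptions, without a test, and tests were kept to the 4 stages in between. Those stages are among the ones at which the probes were dim, so these tests are not independent of the choice either. Other platelet genes and markers of other cell types were tested at all stages.

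RNA was measured in cells of embryonic mouse heart ventricles at E11.5, E12.5, E13.5, E14.5, E15.5 and E16.5, with 3 arrays per stage and 18 in all. Every group came from Wt1GFPKI mice, which carry GFP at the Wt1 locus, and every group consisted of GFP+ cells separated by FACS and lysed directly after the sort. The stated purpose was a profile of cardiomyocytes that express the reporter. No GFP-negative cells, no wild-type animals and no whole ventricle were among these arrays, and the labels do not say whether arrays of a stage came from separate litters, so p-values measure the spread between these samples, which may be technical.

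Platelets are small blood cells without a nucleus that stop bleeding. They carry adhesion receptors, chemokines in granules and a characteristic microtubule ring, and they keep RNA from the megakaryocyte that released them. In the mouse embryo the lineage arises first in the yolk sac and later in the fetal liver, and platelets circulate through the heart with the blood. GATA1 and the ETS factor FLI1 are transcription factors known to drive megakaryocyte genes, often through nearby GATA and ETS sites.

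The windows just upstream of the genes are shown as a description. The course that these probes share is the one they were picked for, and whether the motifs bear on it was not tested. Each window holds the 250 bases before the RefSeq start of the gene in GRCm38.p6, written 5′ to 3′ on the gene's strand, and all 9 genes had 1. The motifs searched, on both strands, were GATAA and AGGAAG (the reverse complements are TTATC and CTTCCT), which share no letters in any window printed here. GATAA was present in 2 of the 9 windows, against 22.6% of the 32851 windows in the RefSeq table, and AGGAAG in 5 of the 9, against 29.5%. Only the Gp9 and F2rl2 windows held both, as did 6.58% of all windows. Capitals mark the matches in the windows of Gp9 (chr6:87777820-87778069, plus strand), F2rl2 (chr13:95696670-95696919, plus strand), Itga2b (chr11:102469884-102470133, minus strand) and Pf4 (chr5:90772185-90772434, plus strand).
Gp9: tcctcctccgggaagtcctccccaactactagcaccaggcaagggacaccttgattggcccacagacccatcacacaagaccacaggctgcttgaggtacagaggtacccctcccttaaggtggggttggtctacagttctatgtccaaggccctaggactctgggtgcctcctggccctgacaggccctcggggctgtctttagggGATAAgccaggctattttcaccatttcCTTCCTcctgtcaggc
F2rl2: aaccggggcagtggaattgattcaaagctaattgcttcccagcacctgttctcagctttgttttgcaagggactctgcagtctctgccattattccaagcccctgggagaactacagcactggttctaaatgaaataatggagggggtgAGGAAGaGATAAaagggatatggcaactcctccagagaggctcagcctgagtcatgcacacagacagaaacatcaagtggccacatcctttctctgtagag
Itga2b: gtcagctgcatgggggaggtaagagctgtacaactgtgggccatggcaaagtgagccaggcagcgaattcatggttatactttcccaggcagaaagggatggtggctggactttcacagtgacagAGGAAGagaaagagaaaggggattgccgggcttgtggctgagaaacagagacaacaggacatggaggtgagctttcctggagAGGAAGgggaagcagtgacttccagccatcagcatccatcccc
Pf4: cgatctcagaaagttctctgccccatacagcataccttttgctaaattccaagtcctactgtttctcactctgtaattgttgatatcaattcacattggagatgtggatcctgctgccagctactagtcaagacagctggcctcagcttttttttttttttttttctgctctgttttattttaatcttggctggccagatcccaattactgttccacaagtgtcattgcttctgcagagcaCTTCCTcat
In F2rl2 the AGGAAG match lies 101 to 96 bases before the start and the GATAA match 94 to 90 bases before it. In Gp9 the GATAA match lies 43 to 39 bases before the start, and AGGAAG reads on the opposite strand 16 to 11 bases before it. Itga2b has AGGAAG at 125 to 120 and at 43 to 38 bases before the start, Pf4 has it on the opposite strand at 9 to 4, and Tubb1 (not printed) has it at 106 to 101. The windows of Ppbp, Treml1, Alox12 and Gp1bb held neither string of letters. Pf4 and Ppbp are neighbours on chromosome 5, with 0 annotated genes starting between them.

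The deposited values are linear, normalized intensities that were not background-subtracted. An array background of about 99 (the mode of all intensities) sits under every value, and a probe was taken to be above background where its intensity exceeded 105.4, the mode plus the margin that a normal background exceeds with a one-sided probability of 0.05, taken from the spread below the mode. Differences are on a log2 scale after normexp background correction, later stage minus earlier stage. Where no array of the dimmer stage was above background, the fold is a lower bound and is written as at least N-fold, with the limit standing in for the dim level. Of the 15 probes, 11 exceeded the limit on at least 3 of the 18 arrays and were tested, and these 11 cover all 9 genes. The other 4 stayed at or near background throughout, with ranges of 97.5 to 106.8 and 94.8 to 105.7 for the second and the third Tubb1 probe, and of 94.1 to 107.2 and 90.8 to 98.3 for those of Alox12. Among the 11, 5 passed that filter only through the E11.5 arrays, so a high E11.5 level was built into their inclusion.

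At E11.5 all 11 probes were above background on all 3 arrays, 33 of 33 pairs of probe and array. The number of pairs was 16 of 33 at E12.5, 12 at E13.5, 5 at E14.5, 11 at E15.5 and 10 at E16.5. For 10 of the 11 probes the 3 E11.5 arrays lay above all 15 later arrays, a pattern found in 2.72% of all tested probes, but one that these genes were chosen for. The exception was the second Itga2b probe. The mean log2 level over the 11 probes was 6.76 ± 0.27 at E11.5 (SD, n = 3), 5.04 ± 0.04 at E12.5, 4.90 ± 0.13 at E13.5, 4.84 ± 0.04 at E14.5, 4.87 ± 0.05 at E15.5 and 4.86 ± 0.03 at E16.5, where the background limit corresponds to 5.02. In cells sorted and pooled in this way, fewer cells of a type and less RNA per cell cannot be told apart.

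**Figure D1:**
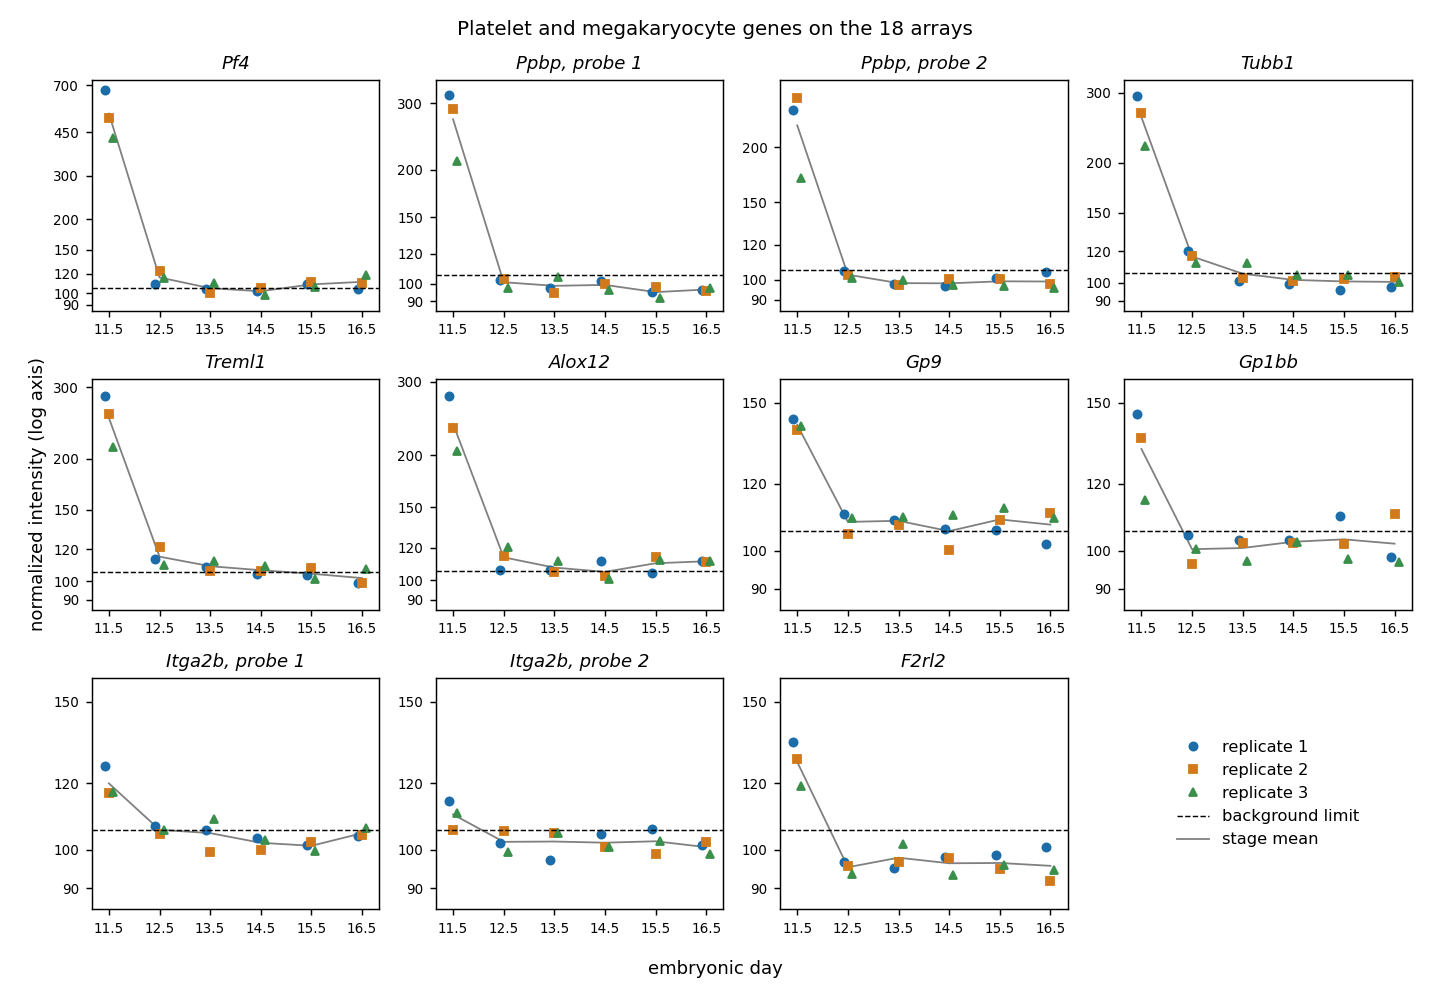
Normalized intensity (log axis) of the 11 tested probes against embryonic day, 1 panel per probe, with 1 point per array, a grey line through the stage means and a dashed line at the background limit of 105.4. The E11.5 points stand above the limit in every panel, and most later points lie within a few units of it.

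The chemokines came first in size of difference. Pf4 encodes platelet factor 4, a chemokine stored in alpha granules. Its intensity was 669, 514 and 426 on the 3 E11.5 arrays, and 109, 123 and 116 on those of E12.5. From E13.5 to E16.5 the 12 arrays ran from 98.2 through a median of 105.6 to 119.0, and 6 of them were above background. The E11.5 and later arrays did not overlap, and the highest E11.5 array was 1.57 times the lowest. On the log2 scale the E12.5 level was -3.41 (SE 0.17) relative to E11.5, or 10.6-fold lower, and at E16.5 it was -3.58 relative to E11.5. Counted as intensity above the mode of 99, the E12.5 mean excess was 3.87% of the E11.5 mean excess of 437.

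Ppbp encodes the precursor of other granule chemokines of platelets, and its 2 probes gave 1 course. The first had 315, 290 and 211 at E11.5 and 103, 103 and 97.6 at E12.5, and no later array was above background, with a range of 91.7 to 104.6 over the 12 arrays from E13.5. The second had 244, 259 and 170 at E11.5 and 105, 102 and 101 at E12.5, and again no later array was above background. In both, the third E11.5 array was the lowest of its stage and still well clear of every later array. The E12.5 level was at least 5.98-fold lower for the first probe (fitted difference -2.80, SE 0.17) and at least 4.5-fold lower for the second (-2.30, SE 0.17).

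The tubulin, the receptor Treml1 and the enzyme Alox12 formed a middle group. Tubb1 encodes the beta-1 tubulin of the platelet microtubule ring. It read 294, 267 and 220 at E11.5, 120, 116 and 112 at E12.5, and 101, 103 and 112 at E13.5. All E12.5 arrays were above background and below every E11.5 array, a difference of -2.10 (SE 0.16), or 4.29-fold. From E14.5 on, no Tubb1 array was above background.

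Treml1 encodes a receptor of alpha granules that reaches the surface on activation. Its intensities were 286, 257 and 214 at E11.5 and 114, 122 and 109 at E12.5, a difference of -2.09 (SE 0.15), or 4.25-fold. The number of arrays above background was 3 at E12.5, 3 at E13.5, 2 at E14.5, 1 at E15.5 and 1 at E16.5. The fitted E16.5 level was 6.20-fold below that of E11.5. Its mean log2 of 4.83 was under the background limit of 5.02, so this fold rests mostly on background readings. No later array reached an E11.5 array.

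Alox12 encodes the platelet 12-lipoxygenase, which oxidizes arachidonic acid. It read 277, 232 and 205 at E11.5 and 106, 114 and 121 at E12.5, a difference of -2.01 (SE 0.16), or 4.04-fold. It was above background on all 3 arrays of E16.5, at 111.6, 110.5 and 111.6, where the level was 4.25-fold below E11.5. Its excess over the mode was 10.5% of the E11.5 excess at E12.5 and 8.79% at E16.5.

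The subunits of the von Willebrand factor receptor, the GPIb-IX-V complex, lay closer to the array background, which weighs more in their folds. Gp9 encodes the GPIX subunit. It read 143.5, 139.1 and 140.5 at E11.5, the tightest of the sets of E11.5 values, and 110.6, 104.5 and 109.4 at E12.5. The difference was -0.96 (SE 0.13), or 1.94-fold. Gp9 kept values just above the limit, on 10 of the 12 arrays from E13.5, all of them at or below 112.3.

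Gp1bb encodes the GPIb beta subunit. It read 145.4, 136.2 and 114.7 at E11.5 and 104.2, 96.4 and 100.5 at E12.5, where no array was above background, so the E12.5 level was at least 1.78-fold lower (fitted difference -1.08, SE 0.19). Single arrays of E15.5 and E16.5 were above the limit, at 109.8 and 110.5. The array annotation gives no named probe for Gp1ba, which encodes the subunit that binds the ligand.

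Itga2b encodes integrin alpha-IIb, the fibrinogen receptor subunit that is also an early mark of the lineage (CD41). Its first probe read 125.9, 116.9 and 117.1 at E11.5 and 106.8, 104.5 and 105.6 at E12.5, a difference of -0.52 (SE 0.12), or 1.43-fold. Its second probe read 114.3, 105.6 and 110.5 at E11.5 and 101.9, 105.4 and 99.3 at E12.5, at least 1.14-fold lower (fitted difference -0.35, SE 0.14). The E11.5 and E12.5 arrays did not overlap in either probe, but 1 E15.5 array of the second probe, at 105.7, was above the lowest E11.5 array.

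F2rl2 encodes the thrombin receptor PAR3, which in mouse platelets presents thrombin to PAR4. It read 134.3, 128.1 and 119.1 at E11.5 and 96.7, 95.6 and 93.6 at E12.5, and no array after E11.5 was above background. The E12.5 level was thus at least 1.66-fold lower (fitted difference -1.27, SE 0.15). Both Ppbp probes and F2rl2 were the 3 tested probes that exceeded the limit at E11.5 and at no later stage.

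Over the 11 probes the difference between E12.5 and E11.5 ran from -3.41 to -0.35 with a median of -2.01, where the median over all tested probes was -0.01. Its size depends on the background correction. On the deposited intensities without correction the Pf4 difference was -2.19, the first Ppbp probe -1.41, Tubb1 -1.15, Gp9 -0.38 and the second Itga2b probe -0.11, and with a normexp offset of 50 Pf4 was -2.67.

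The 3 E11.5 arrays differed among themselves in the same direction for most probes. Replicate 1 was the highest of the 3 on 10 of the 11 probes, as it was on 33.7% of all tested probes, and replicate 3 was the lowest on 8 of the 11, as on 32.6% of all. The mean log2 level over the 11 probes was 7.01, 6.80 and 6.48 on replicates 1, 2 and 3. Each of these is above every later array by more than the spread within any later stage.

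After E12.5 most readings of these probes lay near the background limit, where steps are hard to measure. Between E13.5 and E12.5, 0 of the 11 probes passed the test (limma, Benjamini-Hochberg over all tested probes), where 2.1% of all probes did. The lowest adjusted p was 0.157, for Tubb1 (-0.44, SE 0.16), followed by Pf4 at 0.208 (-0.43, SE 0.17), and these 2 had an unadjusted p under 0.05. Between E14.5 and E13.5, 0 of 11 passed, against 3.15% of all probes, with 0 at an unadjusted p under 0.05 and a lowest adjusted p of 0.658 in limma. Between E15.5 and E14.5, 0 of 11 passed, against 3.15%, again with 0 at an unadjusted p under 0.05 and a lowest adjusted p of 0.488 in limma, for Pf4, where no E14.5 array was above background. The genes were picked as dim after E11.5, so the arrays of E12.5 and of the later stages also bear on the choice. None of these steps is independent of it. With 11 probes and shares of 2.1% to 3.15%, 0 calls is near the share over all probes and says little about these genes. Most of these levels lie at the background limit, where a further decrease would not be detectable.

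Over the 3 days from E12.5 to E15.5, 1 of 11 probes fell and 0 rose, against 4.23% and 4.82% of all tested probes. Tubb1 fell by 0.66 on the log2 scale (SE 0.16, limma adjusted p = 0.00840), at least 1.33-fold, from 120, 116 and 112 to 95.8, 101.9 and 104.3, with no overlap. Treml1 had a difference of -0.42 (SE 0.15, limma adjusted p = 0.0914). Both Ppbp probes and F2rl2 were below background on all arrays of both stages, so their differences compare background readings. The median of the 11 was -0.18. The Tubb1 call was lost on uncorrected intensities (-0.21, limma adjusted p = 0.120) and without replicate 1 of E15.5 (-0.52, limma adjusted p = 0.0613). Between E16.5 and E15.5 the 11 differences ran from -0.13 to 0.17, with a median of -0.02.

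**Figure D2:**
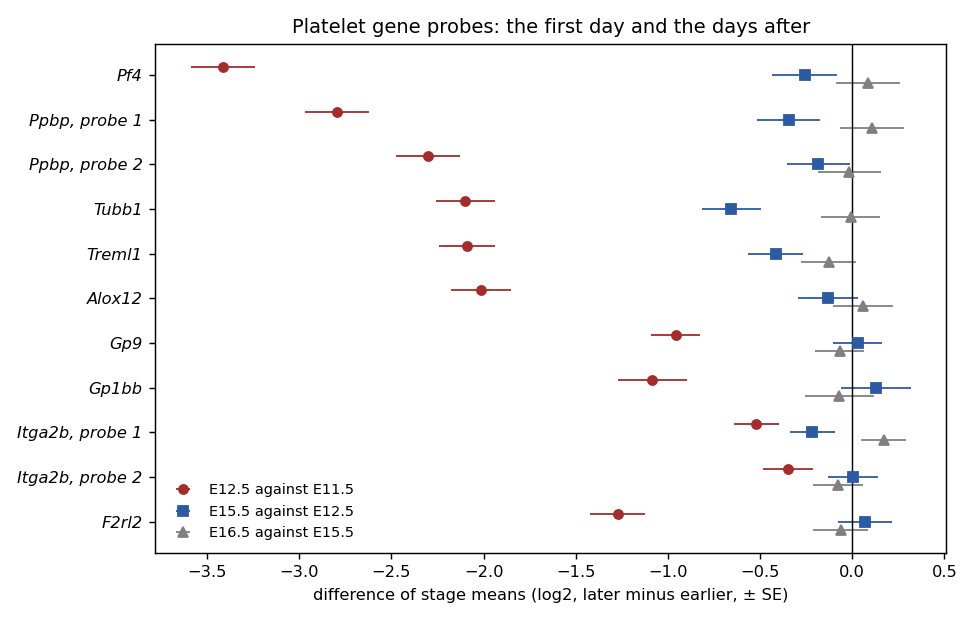
Log2 difference of stage means with its SE (horizontal bars) for the 11 tested probes, for E12.5 against E11.5 (red circles), E15.5 against E12.5 (blue squares) and E16.5 against E15.5 (grey triangles). The red circles run from -3.41 to -0.35, while the squares lie between -0.66 for Tubb1 and 0.13 for Gp1bb and the triangles between -0.13 and 0.17. Squares and triangles of probes without an array above background, such as Ppbp and F2rl2, compare background readings.

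Other genes of the lineage were read from a list of 99 by role, of which 91 had a named probe and 78 were tested. Between E11.5 and E12.5, 11 of the 78 fell and 1 rose, where 0.773% of all tested probes fell and 0.816% rose, and 66 did not pass. The median over the 78 was -0.14. By role, 3 of 18 receptors fell, as did 5 of 17 signalling genes, 2 of 16 granule genes and 1 of 9 transcription factors. No fall was called by limma among 15 cytoskeletal genes (2 at an unadjusted p under 0.05) or 3 lipid mediator genes (0). The E11.5 arrays that admitted a probe also raised its E11.5 level: 8 of the 78 genes passed the filter only through those arrays, and 6 of the 11 falls are among these 8. With the filter set on the 15 other arrays, 70 genes were tested, of which 5 fell and 1 rose, against 0.664% and 0.818% of the probes tested then. The 5 were Gp5, Rgs10, Vwf, Nfe2 and Mrvi1.

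Gp5, the remaining receptor subunit of the GPIb-IX-V complex, read 214.1, 187.2 and 169.2 at E11.5 and 109.3, 124.2 and 108.1 at E12.5. It fell by 1.52 (SE 0.16, limma adjusted p = 1.51e-06), 2.88-fold. Rgs10, a regulator of G-protein signalling, read 323.4, 291.7 and 256.1 at E11.5 and 150.6, 152.1 and 144.9 at E12.5, and fell 2.83-fold (difference -1.50, SE 0.16, limma adjusted p = 1.35e-06). It differs from the chemokines in that it stayed above background on all 18 arrays. Vwf, the adhesive protein that the GPIb complex binds and that endothelium also makes, read 179.8, 159.3 and 159.1 at E11.5 and 102.0, 117.6 and 120.1 at E12.5, and fell by 1.24 (SE 0.19, limma adjusted p = 0.000260). Nfe2, the transcription factor of late platelet formation, read 148.0, 125.6 and 133.5 at E11.5 and 107.6, 110.6 and 108.4 at E12.5, and fell by 0.79 (SE 0.14, limma adjusted p = 0.00164). In all 4 genes every E12.5 array lay below every E11.5 array, as in 9.98% of all tested probes.

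Mrvi1, a target of cGMP kinase, fell by 0.71 (SE 0.14, limma adjusted p = 0.00501). The 6 falls that remain are those of Mpig6b, Plek, F2rl3, Fermt3, Btk and Mmrn1, which passed the filter only through the E11.5 arrays and are given as descriptions. Mpig6b, an inhibitory receptor of megakaryocytes, read 141.9, 131.4 and 127.3 at E11.5 and 107.6, 103.1 and 99.1 at E12.5, a difference of -1.002, and only 2 arrays after E11.5 were above background. Plek, the protein kinase C substrate pleckstrin, had a difference of -0.84 (SE 0.15) and F2rl3, the thrombin receptor PAR4, one of -0.73 (SE 0.14), each with 1 of 3 E12.5 arrays above background. Fermt3, the integrin activator kindlin-3, Btk, a tyrosine kinase, and Mmrn1, the granule protein multimerin 1, were not above background at E12.5 and were at least 1.70-fold, 1.49-fold and 1.16-fold lower. Fermt3, F2rl3, Mrvi1 and Mmrn1 are named here after their values were seen. The calls of F2rl3, Btk and Mmrn1 were lost when single arrays were left out: F2rl3 without E11.5 replicate 1 (limma adjusted p = 0.0553) or 2 (0.0537), Btk without E11.5 replicate 1 (0.0943) or E12.5 replicate 2 (0.0715), and Mmrn1 without E11.5 replicate 2 (0.136) or 3 (0.104) or E12.5 replicate 3 (0.208). The P2rx1 probes had differences of -0.49 (SE 0.14, limma adjusted p = 0.0710) and -0.83 (SE 0.12). The first had no E12.5 array above background. The second exceeded the limit on 5 arrays, 3 of them at E11.5. It thus passed the filter only through the E11.5 arrays, and its difference is a description.

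Other central genes of the lineage did not pass the test or were not detected. Fli1 had a difference of 0.01 (SE 0.15, limma adjusted p = 0.988), Selp, the granule adhesion molecule P-selectin, 0.02 (limma adjusted p = 0.984), and Itgb3, the partner of Itga2b in the fibrinogen receptor, -0.13 (SE 0.15, limma adjusted p = 0.859). Itgb3 read 111.0, 109.2 and 103.4 at E11.5 and 101.9, 115.2 and 99.2 at E12.5, so these groups overlapped. Gp6, the collagen receptor, exceeded the limit on the 3 E11.5 arrays, at 109.0, 110.0 and 109.2, and on no later array, so that it too passed the filter only through E11.5, and its E12.5 level was at least 1.12-fold lower. Thbs1 had -0.42 (limma adjusted p = 0.356). The transglutaminase F13a1, with no E12.5 array above background, did not pass (limma adjusted p = 0.0670). Both Gata1 probes stayed between 88.3 and 102.9, below the limit on all 18 arrays, and 1 Runx1 probe exceeded it on 1 array. Apart from these genes, F2r, which encodes the receptor PAR1, was added after its values were seen. It lay between 1525 and 2458 on all arrays, where the highest Pf4 array was at 669. Its difference was -0.15 (SE 0.14, limma adjusted p = 0.779), and which cells gave this signal was not tested.

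**Figure D3:**
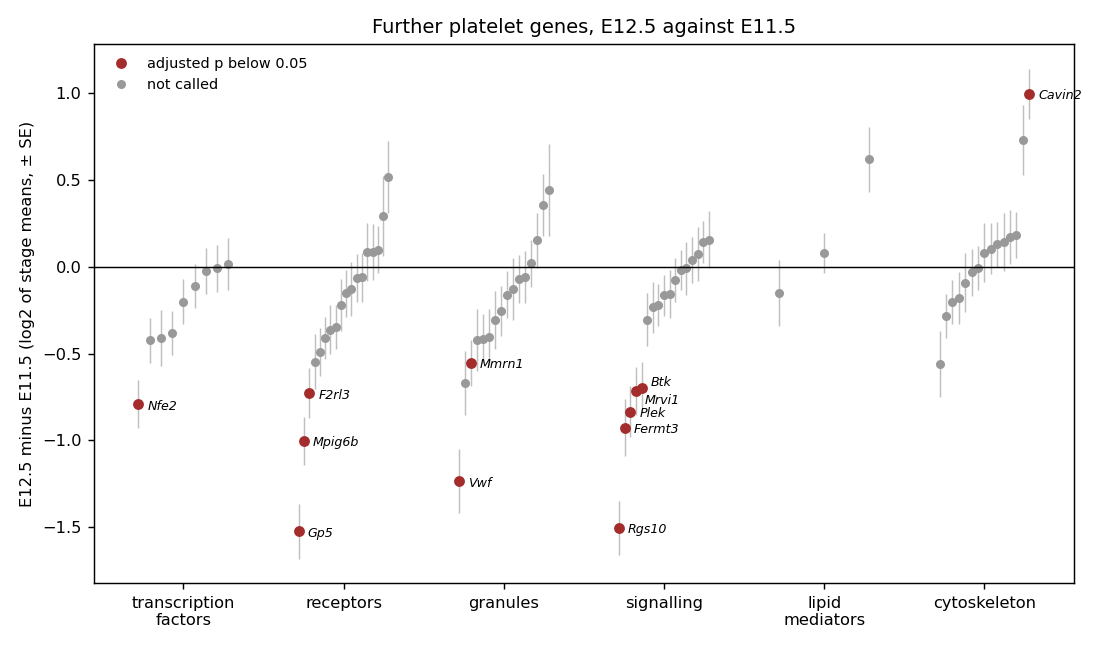
Log2 difference between E12.5 and E11.5 with its SE for the 78 further platelet genes tested, grouped by role, with genes at an adjusted p under 0.05 (limma, Benjamini-Hochberg) in red and named. Gp5 at -1.52 and Rgs10 at -1.50 lie lowest, Cavin2 is the single red point above 0, and most grey points are within 0.5 of 0. Of the red genes, 6 passed the filter only through the E11.5 arrays.

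The rise was Cavin2, a caveolar protein of platelets and of endothelium. It read 480.7, 409.0 and 400.8 at E11.5 and 664.7, 852.8 and 845.0 at E12.5, rose 1.99-fold (SE 0.15 on the log2 scale, limma adjusted p = 0.000205) and stood 5.12-fold above E11.5 at E16.5. Between E11.5 and E16.5, 23 of the 78 genes fell and 9 rose, where 10.4% and 8.94% of all tested probes did, and with the filter on the 15 other arrays 16 of 70 fell and 9 rose, against 10.6% and 9.28%. The 5 falls with the largest fitted differences were those of Gp5 (-1.92), Rgs10 (-1.32), Nfe2, Btk and Plek. No E16.5 array of the last 3 genes was above background, where Nfe2 was at least 1.91-fold, Btk at least 1.49-fold and Plek at least 1.67-fold lower, and Btk and Plek passed the filter only through E11.5. The largest rises were Cavin2 (2.36), Mgst3 (1.84), a glutathione transferase of leukotriene synthesis, Esam (1.73), a junction protein of platelets and endothelium, Pdgfb (1.69), the growth factor, and Gsn (1.55), the actin-severing gelsolin. Between E12.5 and E15.5, 7 fell and 6 rose of 78, against 4.23% and 4.82% of all probes. The differences over the 78 ran from -0.62 to 1.37. The rises included Mylk, the myosin light chain kinase (limma adjusted p = 3.91e-08), Cavin2 (4.15e-06), Mgst3 (0.000215) and Esam (2.29-fold, 0.00103). The calls of these rises held under all 26 alternatives. The falls included Actn1, the actin cross-linker alpha-actinin 1 (-0.62, limma adjusted p = 0.0194, and up to 0.0885 when single arrays were left out), Tbxa2r, the thromboxane receptor (-0.61, SE 0.13, limma adjusted p = 0.00207), and also Gp5 and Nfe2. Neither had an E15.5 array above background, and they were at least 1.24-fold (limma adjusted p = 0.0239) and at least 1.11-fold lower (limma adjusted p = 0.0449). The Gp5 and Nfe2 calls did not hold on uncorrected intensities (limma adjusted p = 0.146 and 0.145) or when single arrays were left out (up to 0.177 for Gp5 without E12.5 replicate 2 and 0.256 for Nfe2 without E15.5 replicate 3).

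The genes whose profile over the 18 arrays was most like the mean of the 11 probes were sought among the 12391 other named genes tested, as a description. Gp5 came first with a Pearson correlation of 0.962, then Mpig6b with 0.950, Plek with 0.943, Nfe2 with 0.937 and Rgs10 with 0.935. For Pf4 alone the order was Gp5 (0.966), Rgs10 (0.959), Mpig6b (0.938), Nfe2 (0.932) and Slit3 (0.926), a guidance ligand that is not on the platelet list. All 18 points share the difference between E11.5 and the rest, which sets most of each value.

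Markers of other cell types were read on the same arrays. The cardiomyocyte markers stood above background on every array, 13 of 13 tested, with a mean log2 level of 11.80 ± 0.06 at E11.5 and 11.78 ± 0.09 at E12.5, and 0 of 13 were called in that step by limma (1 at an unadjusted p under 0.05), with Myl2, the ventricular myosin light chain, at 0.08. Wt1, the gene of the reporter, and Tnnt2 have no named probe, so neither could be checked. Of 11 epicardial and mesothelial genes tested, 3 fell and 2 rose in the first step, where 0.773% of all tested probes fell and 0.816% rose. Among them were Krt8 (-0.72), Tcf21 (1.15) and Upk1b, which was at least 1.62-fold lower with no E12.5 array above background. Of the 11 genes, 8 were above background on all 3 arrays at E11.5.

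Of 13 erythroid genes tested, 5 rose, 1 fell and 7 did not pass between E11.5 and E12.5, with a median difference of 0.15, where 0.816% of all tested probes rose and 0.773% fell. Their mean log2 level was 5.96 ± 0.28 at E11.5 (range 5.69 to 6.25) and 6.94 ± 0.14 at E12.5 (range 6.85 to 7.10). Hbb-bs, an adult beta-globin, rose by 3.37 (SE 0.40, limma adjusted p = 1.03e-05), from 124.8, 112.8 and 182.4 to 706.1, 503.1 and 987.9. Hba-a1 rose by 3.03 and the embryonic Hbb-y by 2.79, whereas the embryonic Hbb-bh1 had -0.34 (limma adjusted p = 0.341) and the regulator Klf1 fell at least 1.22-fold, with no E12.5 array above background. At E11.5 the third array was the highest of its stage in Hbb-bs and the lowest in Pf4.

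Leukocyte genes gave a mixed reading. Between E11.5 and E12.5, 0.773% of all tested probes fell and 0.816% rose. Of 13 leukocyte genes tested, 2 fell, Coro1a (-0.80) and Laptm5 (-0.64), and the mean was 5.74 ± 0.11 (range 5.64 to 5.85) and 5.63 ± 0.04 (range 5.59 to 5.66). Both calls were lost without E11.5 replicate 1 (limma adjusted p = 0.0594 and 0.274). The macrophage lysozymes Lyz1 (0.04) and Lyz2 (-0.07) did not pass in that step, and both fell between E12.5 and E15.5, Lyz1 by 3.46 on the log2 scale and Lyz2 at least 2.93-fold, with no E15.5 array above background. No Ptprc probe, the pan-leukocyte mark CD45, exceeded the limit on any array. Among 9 progenitor genes 0 were called by limma (1 at an unadjusted p under 0.05), with Kit at 0.23 and Cd93 at 0.17, and among 6 mast cell genes Hdc fell by 0.73 and Cpa3 had 0.12. Of 14 endothelial genes 1 rose, Robo4 (0.82), with Pecam1 at 0.34 and Egfl7 at 0.12, and the mean was 6.44 ± 0.11 (range 6.32 to 6.53) and 6.56 ± 0.24 (range 6.28 to 6.71). The calls of Klf1, Hdc and Robo4 were also lost when single arrays were left out, with limma adjusted p up to 0.227, 0.0733 and 0.209. The part of these cell types in the platelet gene differences was not tested.

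**Figure D4:**
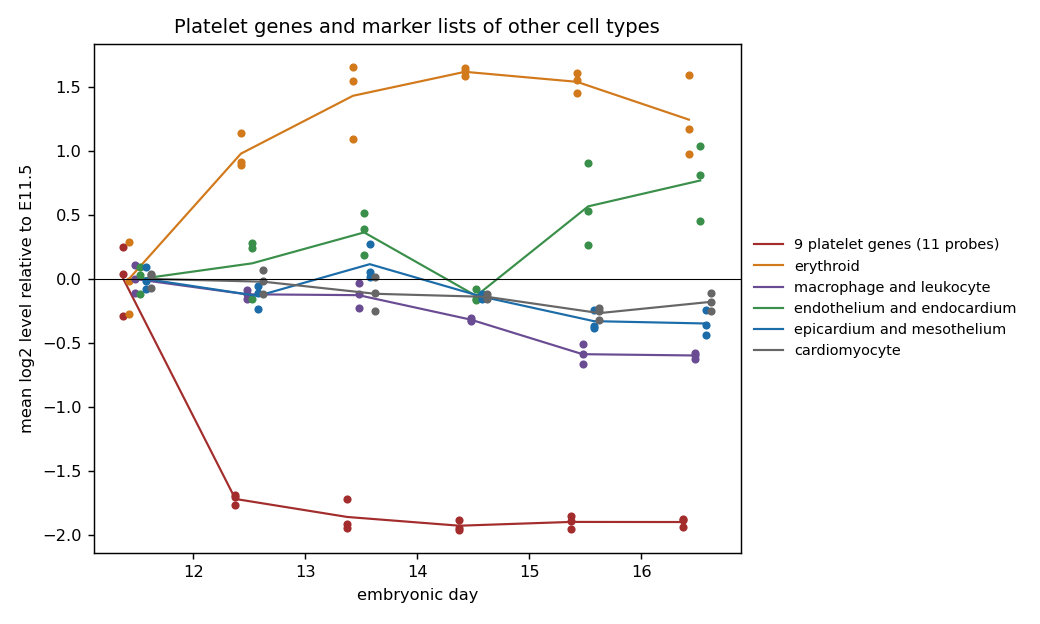
Mean log2 level per array relative to the E11.5 mean, against embryonic day, for the 11 platelet gene probes and 5 marker lists of other cell types (points are arrays, lines join stage means). The platelet probes lie lower from E12.5 on, and the mean of the erythroid list stands higher from E12.5 on. The mean of the cardiomyocyte list varies by less than 0.5 throughout, but its single genes differed by -2.48 to 1.05 between E11.5 and E16.5. The erythroid mean was higher by 0.98 at E12.5 and by 1.24 at E16.5. The medians over the erythroid genes were only 0.15 and 0.11, so the list did not rise as a whole.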

How the data were processed

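Cells of enzymatically dispersed ventricles were sorted by FACS for GFP, RNA was isolated on RNeasy columns and 200 ng was amplified to biotin-labelled cRNA for Illumina arrays, per the labels' protocols. Per the submitters' processing notes GenomeStudio 2011.1 was used, and its settings are not given in the sources used here. The deposited values are linear intensities, from 83.8 to 17358 with a median of 104. Sorted values of the 18 arrays differ by at most 0.0873%, as after quantile normalization by the authors, a step that no header or label names, and the values were kept so. A second table, with 36 columns of values that are not normalized, has names that match no sample and was not used here. No chip or scan label was available, so no batch could enter the fit, and precision is limited by the 3 arrays of each stage.

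Log2 values were computed from the deposited intensities after normexp correction with offset 16 and ran from 4.02 to 14.08. Probes above 105.4 on at least 3 of 18 arrays (25357 of 45281) were fitted with lmFit and eBayes of limma 3.58.1 in R 4.3.3, with 1 mean per stage, and p-values were adjusted by Benjamini-Hochberg at 0.05 over all of them. The fit was tested on simulated data. A gene with several probes was represented by the one with the highest mean, except that each probe of the 9 genes is given. A lower bound on a fold sets the dim level, on each array, at the higher of the lowest value above background and the probe's own. Symbols came from the platform annotation (34885 probes with 1 symbol, 18 with several, 10378 without), of which 34807 matched RefSeq by Entrez number, with 0 symbols changed. The platelet genes, the further lists and the rules were chosen with earlier results of these arrays known. Beside the 9 genes the text names a fixed set of platelet genes, the 5 largest called falls and rises between E11.5 and E16.5, the 2 largest of each other contrast, the most abundant gene of each marker list, 6 fixed markers and the 5 genes most like the 9 genes and most like Pf4. Other names were added after their values were seen. Alternatives were no background correction, offset 50, other filters, array weights, an intensity trend, a replicate block and leaving out each array.

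Whether replicate numbers pair samples was checked by correlating deviations of same-numbered arrays from their stage means. All 3 correlations were over 0.1 between E15.5 and E16.5 alone (0.283, 0.190 and 0.333), where the member differences are the same with a replicate block and no test is reported. In the other comparisons they ran from -0.0416 to 0.167, with at least 1 of the 3 under 0.1 in each (0.147, 0.120 and 0.0661 between E13.5 and E14.5, 0.167, 0.146 and 0.0878 between E14.5 and E15.5), and the numbers were not taken to pair samples there. No label says what the numbers share.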

Additional observations from a re-analysis of the deposited data

How the results depend on the processing

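Of the counts of calls over a gene group under the alternatives, 175 stayed within 1.5 times and 7 did not, and no called value reversed. Among single genes and probes, 5441 comparisons kept their side of the threshold or stayed within the spread, 88 lost a call, 24 gained one and 46 untested differences moved. For the 9 genes, the single call between E12.5 and E15.5 became 0 calls without background correction and 0 with a limit passed on at least 9 arrays, which left 4 probes, and leaving out single arrays gave 0 (E15.5 replicate 1) to 1. The 0 calls of the 3 daily steps after E12.5 remained 0 under every alternative, including the leaving out of each array. For the further platelet genes, the 12 calls between E11.5 and E12.5 became 4 with the limit on at least 9 arrays (3 fell and 1 rose) and 6 with the limit on 3 arrays outside E11.5, an alternative chosen after seeing the data, and ranged from 10 to 15 when single arrays were left out. The 13 calls between E12.5 and E15.5 ranged from 7 (without E12.5 replicate 2, and without E15.5 replicate 3) to 13, and the 32 between E11.5 and E16.5 from 27 to 34. The alternative with a replicate block gave 0, 0, 0 and 1 calls for the 9 genes, and 13, 14 and 34 for the further genes, where the fit without it gave 12, 13 and 32. The causes of these changes were not tested, apart from the smaller number of probes under the stricter filters. Signal close to the background limit sets what can be measured after E12.5.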

Other observations

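Later steps of the further platelet genes are given here as values. Between E12.5 and E13.5 the RNA-binding protein gene Rbm15 fell by 0.58 (SE 0.13, limma adjusted p = 0.0207) and rose by 0.68 (SE 0.13, limma adjusted p = 0.0074) in the following step. Mylk, the myosin light chain kinase, rose by 0.48 (limma adjusted p = 0.0485) between E12.5 and E13.5 and by 1.21 (SE 0.13) between E14.5 and E15.5. Esam fell by 0.94 (SE 0.23, limma adjusted p = 0.0277) between E13.5 and E14.5 and rose 3.12-fold (limma adjusted p = 9.33e-05) between E14.5 and E15.5, and Tpm4, a tropomyosin of the cytoskeleton, fell by 0.88 (SE 0.15, limma adjusted p = 0.00335) between E13.5 and E14.5. Slit3 read between 143 and 153 on the 3 E11.5 arrays and between 110 and 122 on the 15 later arrays. These did not overlap, as in 2.72% of all tested probes. Slit3 was named for its likeness to Pf4, which rests mostly on the difference between E11.5 and the rest.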
